A study of Arabidopsis thaliana with 4 samples.

Results

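The Calvin cycle and photorespiration genes described here are 38 of the 31319 loci measured, taken by their locus identifiers and roles; no cutoff on a measured value entered the rule, though the list was drawn up with earlier results of these data known. They comprise 25 genes of carbon fixation, with the small subunits of Rubisco, Rubisco activase, the enzymes and CP12 proteins of the Calvin cycle, the aldolase FBA5 and the carbonic anhydrases CA1 and CA2, and 13 genes of photorespiration. All 25 are called Calvin cycle genes below, so their counts and medians include FBA5, CA1 and CA2. The study asked how the transcriptome of Arabidopsis thaliana changes when submerged plants return to air, and how the jasmonate-responsive transcription factor MYC2 bears on it. The 4 libraries, 1 per group, were leaf RNA from the myc2-2 mutant at R3 (myc2 R3) and in air (myc2 air), and from wild-type Col-0 at R3 (WT R3) and in air (WT air). Plants were 4 weeks old, and each library pooled leaves of 6 plants. The air libraries were taken before submergence. The R3 libraries are labelled as 3 h after submergence, whereas the treatment protocol speaks of 24 h of submergence in the dark with harvests 0 and 24 h after reoxygenation. The R3 and air libraries therefore also differ in a long dark period, and darkness, submergence and reoxygenation cannot be told apart here.

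The Calvin cycle fixes CO2 in the chloroplast stroma. Rubisco joins CO2 to ribulose bisphosphate, phosphoglycerate kinase and glyceraldehyde-3-phosphate dehydrogenase reduce the product to triose phosphate, and aldolases, phosphatases, transketolase, isomerase, epimerase and phosphoribulokinase rebuild the acceptor. Rubisco also takes up O2, and photorespiration recovers carbon from the resulting phosphoglycolate through chloroplast, peroxisome and mitochondrion, where the glycine decarboxylase complex releases CO2 and ammonium. In leaves, transcripts of both pathways are known to be abundant in the light.

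With 1 library per group there was no replicate, and every difference below compares single libraries, without a test, a p-value or an error between plants. Values are RPKM, reads or fragments per kilobase of gene and per 1000000 mapped, and a log2 ratio is that of RPKM + 1. Depth, in units of 1000000 fragments, was estimated at 22.3 for myc2 R3, 30.5 for myc2 air, 27.7 for WT R3 and 29.2 for WT air. MYC2 itself stood at 34.9 RPKM in myc2 R3 against 91.7 in WT R3, and at 14.2 RPKM in myc2 air against 45.9 in WT air, so it was lower in both mutant libraries but not at 0. An annotated gene on the opposite strand overlaps MYC2, and a value per gene does not separate disrupted from intact transcripts. In leaf RNA, fewer cells of a type and less RNA per cell cannot be told apart.

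Of the 4 Rubisco small subunit genes, RBCS1A had the highest value of all members in every library. The coding sequences of the 4 are alike, which limits how reads can be assigned among them, and they are shown for that reason. RBCS1B, RBCS2B and RBCS3B lie in tandem on chromosome 5 of TAIR10.1 (RefSeq), on the minus strand, with 1095 bases between RBCS1B and RBCS2B and 2264 between RBCS2B and RBCS3B, and RBCS1A lies on chromosome 1. RBCS1B and RBCS2B are identical at 97.3% of 546 coding bases. The first 150 coding bases of each are shown from the start codon, with capitals where a gene has another base than RBCS1A at that position (23 bases in RBCS1B, 22 in RBCS2B and 23 in RBCS3B).
RBCS1A: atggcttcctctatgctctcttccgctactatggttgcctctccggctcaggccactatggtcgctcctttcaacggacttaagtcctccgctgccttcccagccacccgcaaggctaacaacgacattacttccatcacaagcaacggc
RBCS1B: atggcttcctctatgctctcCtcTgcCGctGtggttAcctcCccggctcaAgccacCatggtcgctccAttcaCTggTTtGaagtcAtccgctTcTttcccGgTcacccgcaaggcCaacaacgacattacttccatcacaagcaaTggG
RBCS2B: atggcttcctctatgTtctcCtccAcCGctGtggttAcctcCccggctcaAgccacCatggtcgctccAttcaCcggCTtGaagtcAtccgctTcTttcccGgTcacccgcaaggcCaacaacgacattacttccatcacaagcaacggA
RBCS3B: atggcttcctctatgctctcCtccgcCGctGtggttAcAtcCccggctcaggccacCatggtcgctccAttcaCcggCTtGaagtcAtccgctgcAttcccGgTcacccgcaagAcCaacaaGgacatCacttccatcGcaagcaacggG
Of the 50-base words in their exons, 13.9% in RBCS1B, 21.4% in RBCS2B and 14.6% in RBCS3B also occur in another locus, mostly in each other, so their single values are less certain than their sum.

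MYC2 is known to bind the G-box, CACGTG, a palindrome also read by light-signalling factors, and light-regulated photosynthesis genes often carry the I-box, GATAAG, which was searched on both strands as GATAAG and CTTATC. In the 300 bases before the annotated start, the G-box occurred in 4 of 25 Calvin cycle genes (RBCS2B, CFBP1, TKL2 and PRK) and in 3 of 13 photorespiration genes (GGT1, GGT2 and GLDP1), against 7.09% of 27443 protein-coding nuclear genes. The I-box occurred in 5 of 25 and 1 of 13, against 14.5%. Both occurred in RBCS2B and CFBP1, a combination found in 1.14% of all windows. These windows are shown for those genes with both motifs, and for GLDP1 and GLDP2, the paired glycine decarboxylase genes described below, chosen after their values were seen. Each runs 5′ to 3′ along the gene's strand, with G-boxes and I-boxes in capitals.
RBCS2B, chr5:15382072-15382371, minus strand: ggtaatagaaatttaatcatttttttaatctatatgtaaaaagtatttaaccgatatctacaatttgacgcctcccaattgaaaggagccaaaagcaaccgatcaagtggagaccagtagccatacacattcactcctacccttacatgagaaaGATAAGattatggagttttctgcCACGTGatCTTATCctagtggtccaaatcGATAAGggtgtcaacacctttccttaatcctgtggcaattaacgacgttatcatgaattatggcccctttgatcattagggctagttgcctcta
CFBP1, chr3:20016537-20016836, plus strand: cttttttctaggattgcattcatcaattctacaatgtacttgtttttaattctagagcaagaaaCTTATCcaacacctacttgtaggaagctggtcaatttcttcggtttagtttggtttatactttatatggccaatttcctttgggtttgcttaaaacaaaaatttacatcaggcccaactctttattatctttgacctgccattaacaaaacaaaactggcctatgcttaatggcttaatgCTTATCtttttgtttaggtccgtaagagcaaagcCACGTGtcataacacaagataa
GLDP1, chr4:15931423-15931722, minus strand: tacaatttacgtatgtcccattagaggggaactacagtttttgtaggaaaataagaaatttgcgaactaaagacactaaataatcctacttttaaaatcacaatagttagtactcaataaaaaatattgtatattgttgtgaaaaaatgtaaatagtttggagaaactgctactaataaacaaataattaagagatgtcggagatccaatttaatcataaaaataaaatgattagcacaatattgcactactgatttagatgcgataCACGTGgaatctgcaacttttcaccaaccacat
GLDP2, chr2:11114292-11114591, minus strand: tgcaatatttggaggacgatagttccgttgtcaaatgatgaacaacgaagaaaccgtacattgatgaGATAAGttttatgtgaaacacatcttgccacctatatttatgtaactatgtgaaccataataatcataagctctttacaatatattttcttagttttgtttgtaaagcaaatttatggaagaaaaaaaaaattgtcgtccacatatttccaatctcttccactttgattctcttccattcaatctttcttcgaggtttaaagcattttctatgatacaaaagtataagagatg
The G-box begins at position −123 from the start in RBCS2B, where I-boxes stand on both sides of it, at −22 in CFBP1 and at −33 in GLDP1. GLDP2 holds only an I-box, at −233. A match is a string of letters and not a shown binding site.

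Both pathways were lower at R3 than in air in both genotypes, and the Calvin cycle genes by more. In myc2, 23 of 25 Calvin cycle genes and 9 of the 12 photorespiration genes past the filter were at least 2-fold lower at R3, where 11.5% of 17737 genes were. In WT, 24 of 25 and 11 of 12 were at least 2-fold lower, where 10.1% of 17271 genes were. The Calvin cycle median was −2.03 in myc2 and −2.58 in WT (4.09-fold and 5.96-fold lower), and the photorespiration median was −1.57 in myc2 and −2.10 in WT (2.97-fold and 4.29-fold lower). The median of all genes was 0.30 in myc2 and 0.57 in WT, so relative to it the Calvin cycle stood at −2.34 in myc2 and −3.14 in WT, and photorespiration at −1.87 and −2.67. Genes entered a comparison when their mean over its libraries reached 1 RPKM, which PGLP1 alone among the members did not do in the R3 comparisons. Of the 37 others, 32 were at least 2-fold lower in both genotypes, 3 in WT alone (RPI3, GGT1 and GGT2) and 0 in myc2 alone. With median-of-ratios scaling those 3 passed 2-fold in myc2 as well (−1.146, −1.168 and −1.003).

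**Figure D1:**
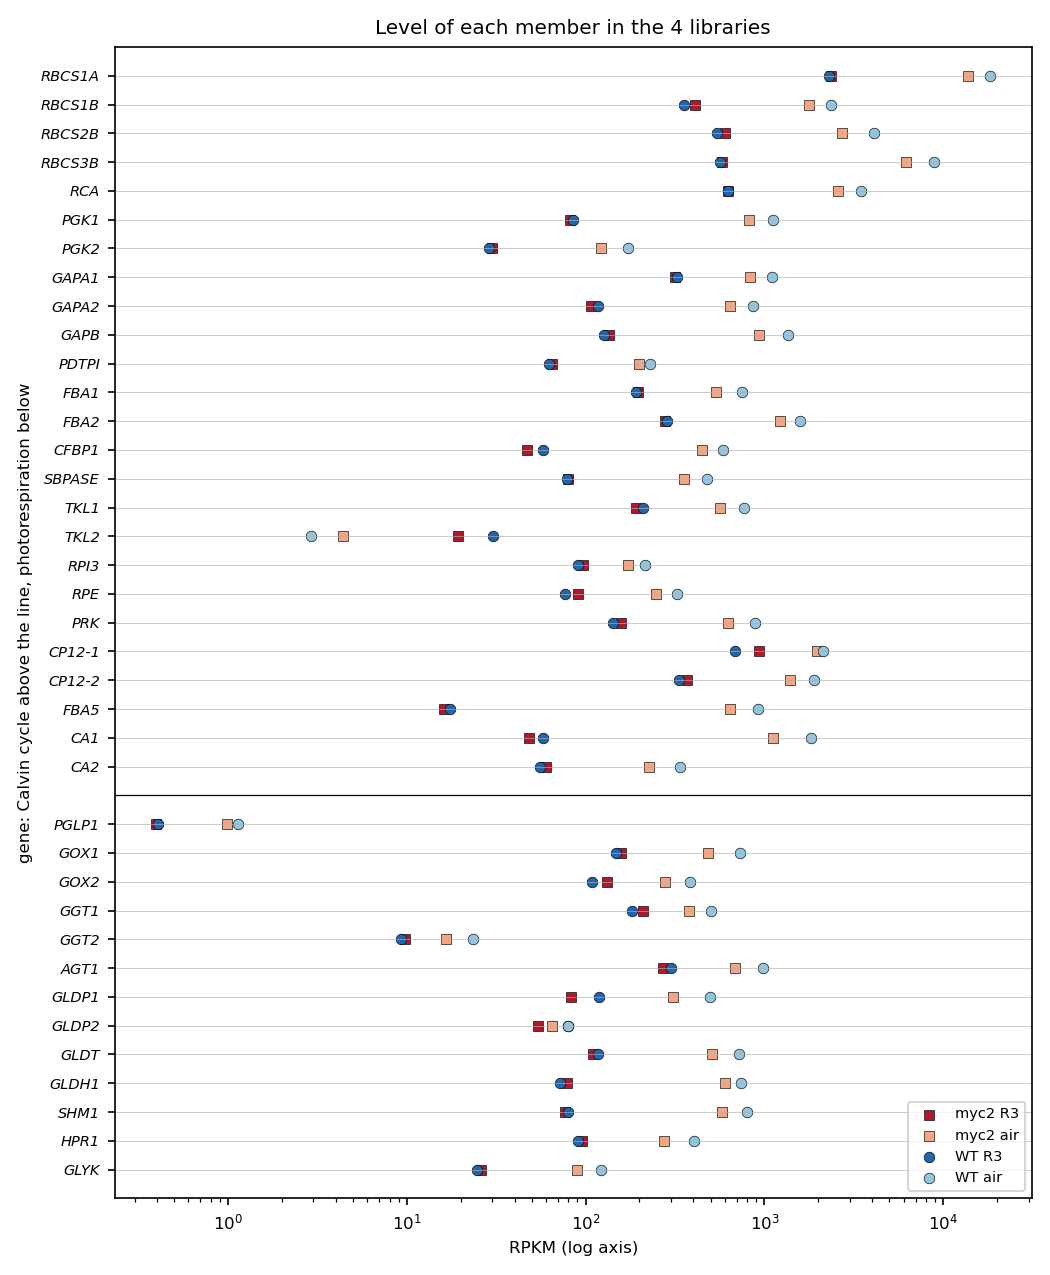
RPKM of each member (log axis) in myc2 R3, myc2 air, WT R3 and WT air, 1 point per library. For nearly all genes the R3 points lie left of the air points and the R3 points of both genotypes nearly coincide; TKL2 lies the other way round and GLDP2 hardly spreads.

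The photorespiration median lay above the Calvin cycle median by 0.46 in myc2 and by 0.47 in WT. Over all settings tried, the distance ran from 0.42 to 0.51 in myc2 and from 0.43 to 0.52 in WT. The low end in myc2 came from leaving out members with shared words. Rescaling a library cancels in this distance up to the pseudocount and filter, so the scalings could hardly move it. The lists overlapped widely: GLDH1 and SHM1 were lower at R3 than most Calvin cycle genes were, and RPI3 and GAPA1 less so than most photorespiration genes. As a share of all RPKM, the Calvin cycle genes held 1.35% in myc2 R3 against 6.54% in myc2 air, and 1.41% in WT R3 against 8.74% in WT air. Photorespiration genes held 0.223% in myc2 R3 against 0.696% in myc2 air, and 0.252% in WT R3 against 0.956% in WT air. Across the 37 members the responses of both genotypes had a Pearson correlation of 0.98 and a Spearman correlation of 0.98, a description over genes that share their libraries, beside 0.91 and 0.89 over all 15806 genes that passed the filter in each comparison.

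**Figure D2:**
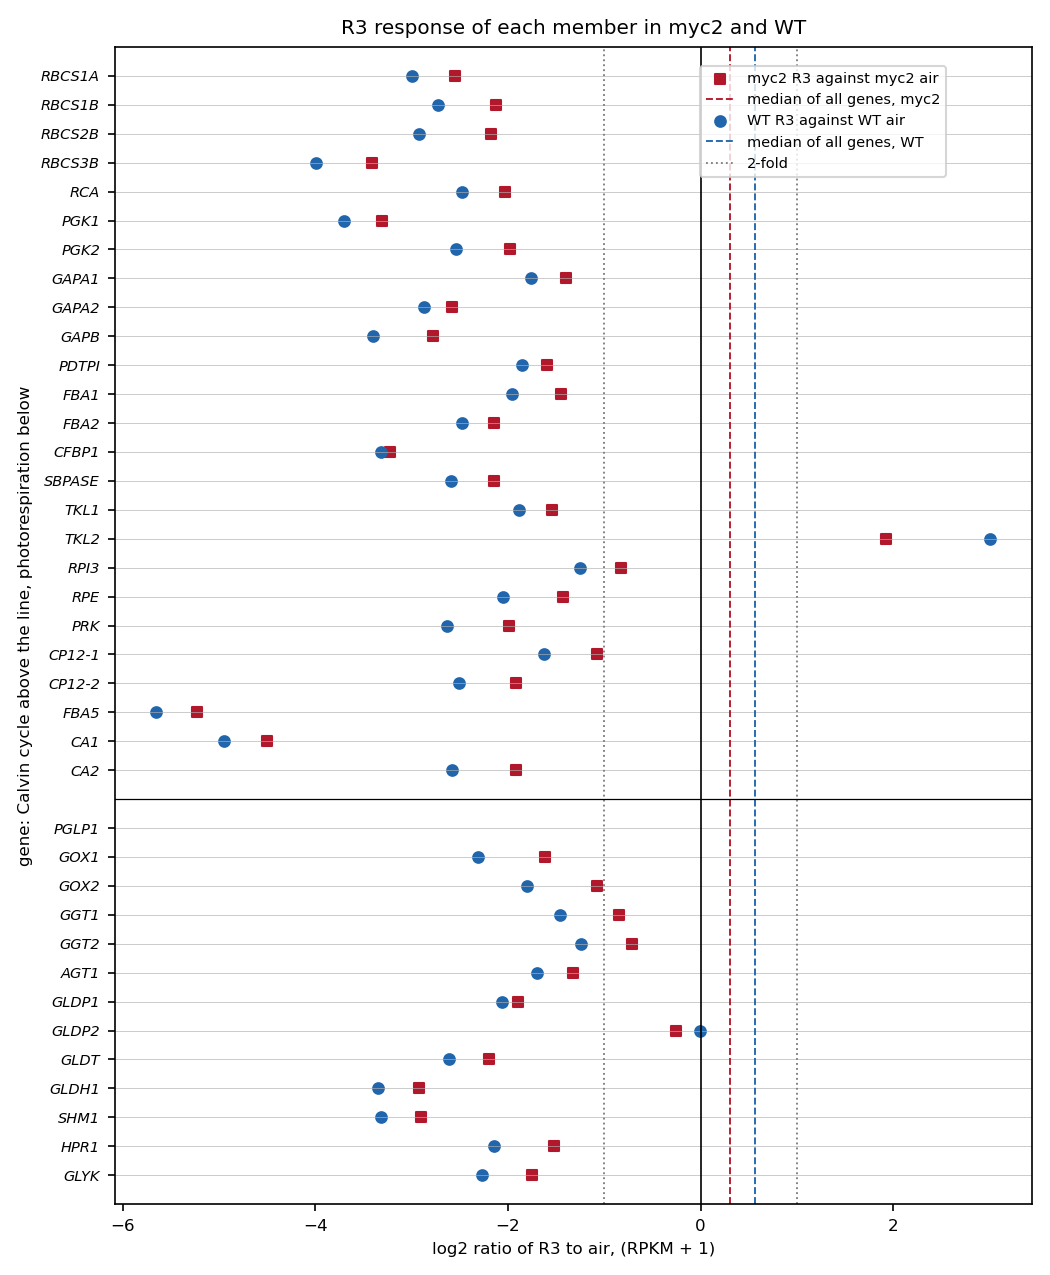
log2 ratio of R3 to air of each member, squares for myc2 and circles for WT, with dashed lines at the median of all genes (0.30 in myc2 and 0.57 in WT) and dotted lines at 2-fold. Nearly all members lie left of the 2-fold line with the WT point further left than the myc2 point; PGLP1 has no point because it did not pass the filter.

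The Rubisco small subunits were the most abundant group among the Calvin cycle genes. RBCS1A (AT1G67090), a small subunit gene, was at 2345 RPKM in myc2 R3 against 13700.2 in myc2 air, and at 2289.7 in WT R3 against 18319 in WT air (log2 −2.55 in myc2 and −3.0 in WT). It had rank 5 of all genes in both R3 libraries and rank 2 in both air libraries. RBCS3B (AT5G38410) was at 579 RPKM in myc2 R3 against 6170.0 in myc2 air, and at 561 in WT R3 against 8905 in WT air (log2 −3.41 and −3.99). RBCS3B thus made up less of the small subunit sum at R3, with 14.7% in myc2 R3 against 25.3% in myc2 air and 15.0% in WT R3 against 26.4% in WT air. RBCS1B (AT5G38430) was at 408 RPKM in myc2 R3 against 1782 in myc2 air, and at 354 in WT R3 against 2351 in WT air. RBCS2B (AT5G38420) was at 599.5 RPKM in myc2 R3 against 2719.7 in myc2 air, and at 541 in WT R3 against 4102 in WT air. In sum the 4 genes held 0.674% of all RPKM in myc2 R3 against 3.98% in myc2 air, and 0.709% in WT R3 against 5.38% in WT air. RCA (AT2G39730), Rubisco activase, which frees the enzyme of inhibiting sugar phosphates, was at 628 RPKM in myc2 R3 against 2571.5 in myc2 air, and at 624 in WT R3 against 3478 in WT air.

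Genes of the reduction steps were lower throughout, by unequal amounts. PGK1 (AT3G12780), a plastid phosphoglycerate kinase, was at 81.5 RPKM in myc2 R3 against 817 in myc2 air, and at 85.4 in WT R3 against 1120.0 in WT air, which is 10.02-fold lower in myc2 and 13.1-fold in WT. PGK2 (AT1G56190), its paralogue, was 4.05-fold lower in myc2 and 5.99-fold in WT. The glyceraldehyde-3-phosphate dehydrogenase subunits A and B work as one enzyme, and GAPB (AT1G42970) was 6.88-fold lower in myc2 and 10.7-fold in WT. GAPA1 (AT3G26650) was at 317 RPKM in myc2 R3 against 835 in myc2 air, and at 325 in WT R3 against 1103 in WT air. GAPA2 (AT1G12900) was at 107 RPKM in myc2 R3 against 641 in myc2 air, and at 117 in WT R3 against 867 in WT air. These subunit A genes stood close together in air and apart at R3, with GAPA1 over GAPA2 at 2.98 in myc2 R3 against 1.30 in myc2 air, and 2.77 in WT R3 against 1.27 in WT air. PDTPI (AT2G21170), the plastid triose phosphate isomerase, was 3.05-fold lower in myc2 and 3.66-fold in WT.

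Among the genes that rebuild the acceptor, CFBP1 (AT3G54050) had the lowest ratios. CFBP1, the chloroplast fructose bisphosphatase, was at 46.8 RPKM in myc2 R3 against 445 in myc2 air, and at 58.0 in WT R3 against 588 in WT air (log2 −3.22 and −3.32). SBPASE (AT3G55800), sedoheptulose bisphosphatase, was 4.46-fold lower in myc2 and 6.09-fold in WT. PRK (AT1G32060), phosphoribulokinase, which makes the CO2 acceptor, was 3.97-fold lower in myc2 and 6.23-fold in WT. The aldolases FBA1 (AT2G21330) and FBA2 (AT4G38970) had log2 ratios of −1.45 and −2.14 in myc2 and of −1.96 and −2.47 in WT. The epimerase gene RPE (AT5G61410) had log2 ratios of −1.43 in myc2 and −2.05 in WT. RPI3 (AT3G04790), a ribose phosphate isomerase, differed least among the Calvin cycle genes, with 96.4 RPKM in myc2 R3 against 172 in myc2 air, and 90.0 in WT R3 against 216 in WT air (log2 −0.83 and −1.25). Its exons overlap a gene on the opposite strand, as do those of RCA, PGK1, CFBP1, PRK, GOX1 and GLDP1, and reads of such pairs could not be told apart because the use of strand is not given in the sources used here. CP12-1 (AT2G47400) and CP12-2 (AT3G62410), small proteins that hold the dehydrogenase and phosphoribulokinase inactive in the dark, had log2 ratios of −1.07 and −1.92 in myc2 and of −1.62 and −2.50 in WT.

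TKL2 (AT2G45290) stood against all other members. Transketolase is encoded by TKL1 (AT3G60750) and TKL2, and TKL1, the abundant form, was at 192 RPKM in myc2 R3 against 562 in myc2 air, and at 209 in WT R3 against 771 in WT air. TKL2 was at 19.4 RPKM in myc2 R3 against 4.39 in myc2 air, and at 30.4 in WT R3 against 2.91 in WT air. It was thus 4.43-fold higher at R3 in myc2 and 10.5-fold higher in WT, where 23.5% of all genes in myc2 and 31.3% in WT were at least 2-fold higher. TKL1 remained the higher of the pair in every library, with TKL1 over TKL2 at 9.89 in myc2 R3 against 128 in myc2 air, and 6.86 in WT R3 against 265 in WT air.

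The lowest ratios of all members were those of FBA5 (AT4G26530) and CA1 (AT3G01500). FBA5, an aldolase grouped in Arabidopsis with the cytosolic forms rather than with FBA1 and FBA2, was at 16.2 RPKM in myc2 R3 against 642 in myc2 air, and at 17.3 in WT R3 against 919 in WT air. That is 39.7-fold lower in myc2 and 53.0-fold in WT, and in each genotype no gene past the filter had a lower log2 ratio (−5.23 and −5.65). CA1, the chloroplast carbonic anhydrase, which interconverts CO2 and bicarbonate, was at 48.1 RPKM in myc2 R3 against 1114 in myc2 air, and at 57.6 in WT R3 against 1811 in WT air. CA2 (AT5G14740), a cytosolic form, was at 59.7 RPKM in myc2 R3 against 227 in myc2 air, and at 55.4 in WT R3 against 335 in WT air. CA1 exceeded CA2 in air and was near it at R3, with CA1 over CA2 at 0.806 in myc2 R3 against 4.90 in myc2 air, and 1.04 in WT R3 against 5.40 in WT air. The exons of FBA5, CA1 and GAPA1 overlap a neighbour on the same strand, so their values may hold reads of that neighbour.

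In photorespiration, the glycine decarboxylase and serine hydroxymethyltransferase genes of the mitochondrion included both the lowest ratios and the gene nearest to no difference. GLDH1 (AT2G35370), the lipoate-carrying H protein, was at 78.7 RPKM in myc2 R3 against 601 in myc2 air, and at 71.9 in WT R3 against 743 in WT air (log2 −2.92 and −3.35). SHM1 (AT4G37930), which makes serine from glycine, was at 76.5 RPKM in myc2 R3 against 577 in myc2 air, and at 79.3 in WT R3 against 799.5 in WT air (log2 −2.90 and −3.32). GLDT (AT1G11860), the T protein, had log2 ratios of −2.20 in myc2 and −2.61 in WT. The P protein, which binds glycine, has paired genes. GLDP1 (AT4G33010) was at 82.6 RPKM in myc2 R3 against 309 in myc2 air, and at 118 in WT R3 against 495 in WT air. GLDP2 (AT2G26080) was at 53.9 RPKM in myc2 R3 against 64.7 in myc2 air, and at 79.7 in both WT R3 and WT air. GLDP1 was higher than GLDP2 in all 4 libraries, but by less at R3, with GLDP1 over GLDP2 at 1.53 in myc2 R3 against 4.78 in myc2 air, and 1.48 in WT R3 against 6.21 in WT air. In the upstream windows of this pair, shown above, GLDP1 alone holds a G-box and GLDP2 alone an I-box. Whether either motif bears on these ratios was not tested.

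Among the peroxisomal genes, GOX1 (AT3G14420) and GOX2 (AT3G14415), tandem glycolate oxidase genes with 377 bases between them, had log2 ratios of −1.62 and −1.08 in myc2 and of −2.31 and −1.80 in WT. GGT1 (AT1G23310), the main glutamate:glyoxylate aminotransferase, was at 209 RPKM in myc2 R3 against 376 in myc2 air, and at 180 in WT R3 against 499 in WT air. GGT2 (AT1G70580), its minor paralogue, was at 9.73 RPKM in myc2 R3 against 16.5 in myc2 air, and at 9.25 in WT R3 against 23.3 in WT air. This was the steadiest pair, with GGT1 over GGT2 at 21.5 in myc2 R3 against 22.8 in myc2 air, and 19.5 in WT R3 against 21.4 in WT air. AGT1 (AT2G13360), the serine:glyoxylate aminotransferase, was 2.50-fold lower in myc2 and 3.25-fold in WT. HPR1 (AT1G68010), the peroxisomal hydroxypyruvate reductase, was 2.89-fold lower in myc2 and 4.46-fold in WT. GLYK (AT1G80380), the chloroplast glycerate kinase that ends the pathway, was 3.45-fold lower in myc2 and 4.97-fold in WT. PGLP1 (AT5G36700), the phosphoglycolate phosphatase that begins it, was listed at 0.397 RPKM in myc2 R3, 0.984 in myc2 air, 0.406 in WT R3 and 1.13 in WT air. Its coding sequence is identical over 1089 bases to that of AT5G36790, and 91.2% of its 50-base words occur there, so these low values are uncertain.

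Genes outside the list that serve the same steps did not move as one. Of 15 counterparts, mostly cytosolic enzymes of glycolysis and the pentose phosphate pathway, 6 were at least 2-fold higher at R3 in each genotype, beside 23.5% of all genes in myc2 and 31.3% in WT, and 2 were at least 2-fold lower, beside 11.5% in myc2 and 10.1% in WT. The counts of lower genes lie near the shares over all genes. The count of higher genes lies above them, more so in myc2. With only 15 genes it is not read as particular to the counterparts. With median-of-ratios scaling 4 were higher in each genotype. The 2 highest were GAPC1 and RPI1 in myc2, and GAPC1 and SHM4 in WT. GAPC1, a cytosolic glyceraldehyde-3-phosphate dehydrogenase, was at 722 RPKM in myc2 R3 against 166 in myc2 air, and at 643 in WT R3 against 116 in WT air. The log2 ratios of RPI1 were 1.78 in myc2 and 1.70 in WT, and those of SHM4 were 1.14 and 2.32. The lowest were FBA7 (−2.15 and −2.37) and CYFBP, the cytosolic fructose bisphosphatase (−1.68 and −1.87). The exons of FBA7 overlap those of FBA5 on the same strand, so the FBA7 values may hold reads of FBA5. The order within several steps turned over. PGK1 over PGK3, a cytosolic kinase named, like the other pairs plotted, after its values were seen, was 0.426 in myc2 R3 against 10.2 in myc2 air, and 0.417 in WT R3 against 16.3 in WT air. GAPA1 over GAPC1 was 0.440 in myc2 R3 against 5.03 in myc2 air, and 0.505 in WT R3 against 9.53 in WT air.

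**Figure D3:**
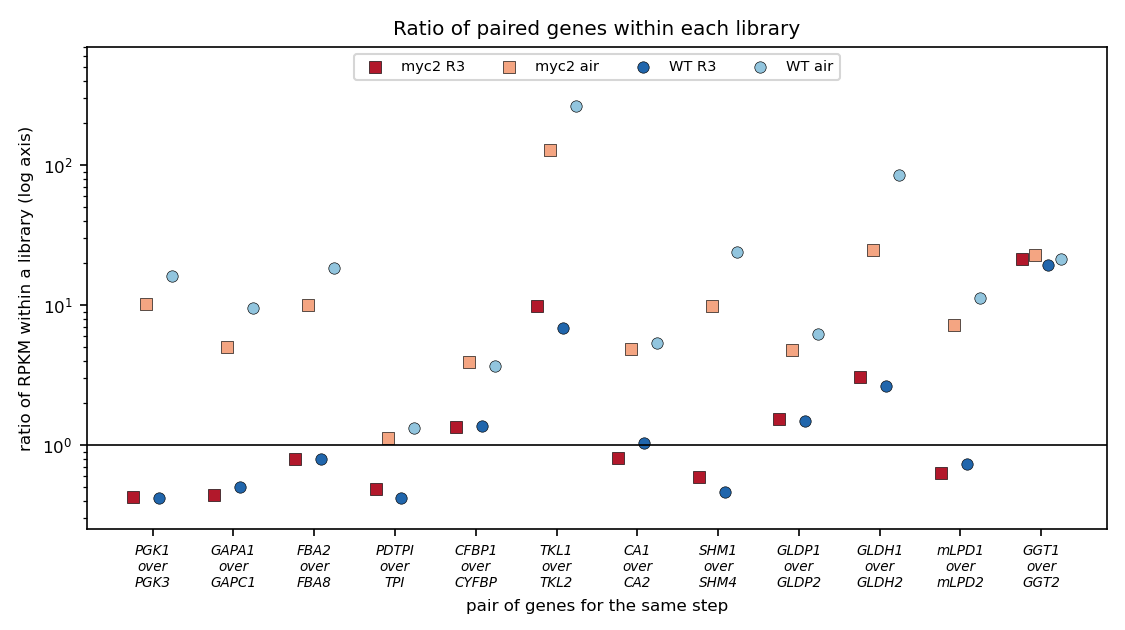
Ratio of RPKM of paired genes for the same step within each library (log axis, line at 1), squares for myc2 and circles for WT. Most pairs lie lower at R3 than in air, and PGK1 over PGK3, GAPA1 over GAPC1, FBA2 over FBA8, PDTPI over TPI, SHM1 over SHM4 and mLPD1 over mLPD2 lie below 1 at R3 and above 1 in air; GGT1 over GGT2 stays near 20.

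Among 17 further photorespiration genes, 6 were at least 2-fold lower and 2 higher at R3 in myc2, beside 11.5% and 23.5% of all genes, and 8 were lower and 3 higher in WT, beside 10.1% and 31.3%. With median-of-ratios scaling these counts were 8 lower and 2 higher in myc2, and 11 lower and 1 higher in WT. The lowest were GLDH3, another H protein gene (log2 −3.21 in myc2 and −3.64 in WT), and GS2, the plastid glutamine synthetase that refixes ammonium (−2.88 and −3.44). The highest were GOX3, a glycolate oxidase family member below 6 RPKM in every library (2.34 and 2.11), and mLPD2, an L protein gene shared with other mitochondrial complexes (1.37 and 1.55). GOX3 was at only 0.321 RPKM in myc2 air and 0.198 in WT air, so its ratios rest on the pseudocount. With a pseudocount of 5 RPKM its log2 ratio in WT was 0.82, under 2-fold. GLDH2, one more H protein gene, named after its values were seen, was at 25.8 RPKM in myc2 R3 against 24.3 in myc2 air, and at 27.0 in WT R3 against 8.74 in WT air. Its log2 ratio at R3 was 0.08 in myc2, below 0 under some scalings, and 1.52 in WT.

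Of 11 genes of Rubisco assembly and repair, 7 were at least 2-fold lower in each genotype, beside 11.5% of all genes in myc2 and 10.1% in WT, while 1 was at least 2-fold higher in myc2 and 0 in WT, beside 23.5% and 31.3%. The gene higher in myc2 was RBCX2, which was under 2-fold there with median-of-ratios scaling (0.72), and with an equal sum 2 genes passed 2-fold in WT, RBCX2 (1.01) and CPN60B2 (1.21). RBCX1, an assembly chaperone, was at 1.01 RPKM in myc2 R3 against 33.1 in myc2 air, and at 1.24 in WT R3 against 35.6 in WT air. CBBY, a phosphatase that removes an inhibitor of Rubisco, had log2 ratios of −3.28 in myc2 and −3.74 in WT. RBCX2, the other chaperone of that family, was at 67.6 RPKM in myc2 R3 against 32.5 in myc2 air, and at 66.3 in WT R3 against 38.7 in WT air, and CPN60B2, a plastid chaperonin subunit, had log2 ratios of 0.58 and 0.96. The 10 redox regulators were plastid thioredoxins, thioredoxin reductases and CP12-3. Of these, 8 were at least 2-fold lower in each genotype, beside 11.5% of all genes in myc2 and 10.1% in WT. In each genotype 1 was at least 2-fold higher, beside 23.5% and 31.3%. The lowest were the thioredoxins TRXF2 (−2.57 and −2.92) and TRXM1 (−2.26 and −2.77). The one higher was CP12-3, at 49.7 RPKM in myc2 R3 against 13.2 in myc2 air, and at 39.2 in WT R3 against 11.8 in WT air, so this CP12 gene went the other way from CP12-1 and CP12-2. FTRA1, a ferredoxin:thioredoxin reductase subunit, was next, at −0.07 in myc2 and −0.86 in WT.

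Markers moved beside these results. All 4 leaf mesophyll markers, genes of light harvesting and electron transport, were at least 2-fold lower at R3 in both genotypes. Among all genes 11.5% were in myc2 and 10.1% in WT. The medians of these markers were −3.23 in myc2 and −3.53 in WT. The 6 root, flower and seed markers summed to 31.4 RPKM in myc2 R3, 14.2 in myc2 air, 74.8 in WT R3 and 5.53 in WT air, mostly from PYK10 and PI, while OLEO1 was listed at 0 in all 4 and CRU3 in 3 of the 4 libraries, with 0.0400 RPKM in myc2 R3. AP3 and SEP3 went the other way from the sum. AP3 was at 1.62 RPKM in myc2 R3 against 2.27 in myc2 air, and at 0.325 in WT R3 against 0.651 in WT air. SEP3 was at 1.25 RPKM in myc2 R3 against 3.27 in myc2 air, and at 0.351 in WT R3 against 1.36 in WT air. Of 4 vascular and guard cell markers, 1 was at least 2-fold higher at R3 in WT and 0 in myc2, beside 31.3% and 23.5% of all genes. The part of all these markers in the differences was not tested.

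In air, 37 of the 38 members were lower in myc2 than in WT, by less than 2-fold. Among all genes 21.4% of 16616 were lower there, and the median of all genes was 0.22. The 37 include PGLP1, whose reads can hardly be told from those of AT5G36790. Summed, PGLP1 and AT5G36790 went the other way, with 2.07 RPKM in myc2 air against 1.95 in WT air. The medians were −0.44 for the Calvin cycle and −0.47 for photorespiration (1.35-fold and 1.38-fold lower, and from −0.73 to −0.40 and from −0.76 to −0.44 over the settings tried), or −0.65 and −0.69 relative to all genes, and 0 members were 2-fold apart, where 0.343% of all genes were at least 2-fold lower and 2.47% higher. CA1, at 1114 RPKM in myc2 air against 1811 in WT air, had the lowest ratio (−0.70), followed by GLDP1 (−0.68), GOX1 (−0.60) and RBCS2B (−0.59). The middle of the lists was narrow, from −0.50 to −0.40 between the quartiles of the Calvin cycle and from −0.52 to −0.41 in photorespiration. Apart from the uncertain PGLP1 (−0.10), CP12-1 (−0.11) and PDTPI (−0.21) differed least, and TKL2 was higher in myc2 (0.46). All 4 mesophyll markers were lower too, with a median of −0.31. The root, flower and seed markers summed to 14.2 RPKM in myc2 air against 5.53 in WT air, and each of the 4 that could be compared was above its WT value, with a median of 0.94. Of the 4 vascular and guard cell markers 2 were lower and 2 higher, from −0.77 (SUC2) to 0.08 (MYB60). Their part in the difference was not tested.

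At R3 the genotypes lay close together. The medians were 0.03 for the Calvin cycle and 0.07 for photorespiration, beside 0.04 for all genes, and 9 of 25 and 5 of 12 members were lower in myc2, where 44% of 17491 genes were. These signs turned under other scalings, to −0.11 and −0.07 when each library was brought to the same sum. None of the 37 members was 2-fold apart, where 1.6% of all genes were at least 2-fold lower and 1.92% higher. The members farthest apart were TKL2, at 19.4 RPKM in myc2 R3 against 30.4 in WT R3 (−0.62), GLDP2, at 53.9 in myc2 R3 against 79.7 in WT R3 (−0.56), GLDP1, at 82.6 in myc2 R3 against 118 in WT R3 (−0.51), and CP12-1, at 934 in myc2 R3 against 688 in WT R3 (0.44). Both P protein genes were thus lower in myc2 at R3, while the H and T protein genes GLDH1 and GLDT had log2 ratios of 0.13 and −0.10. All 4 vascular and guard cell markers were lower in myc2 R3 than in WT R3, with a median of −0.72, and their part was not tested.

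**Figure D4:**
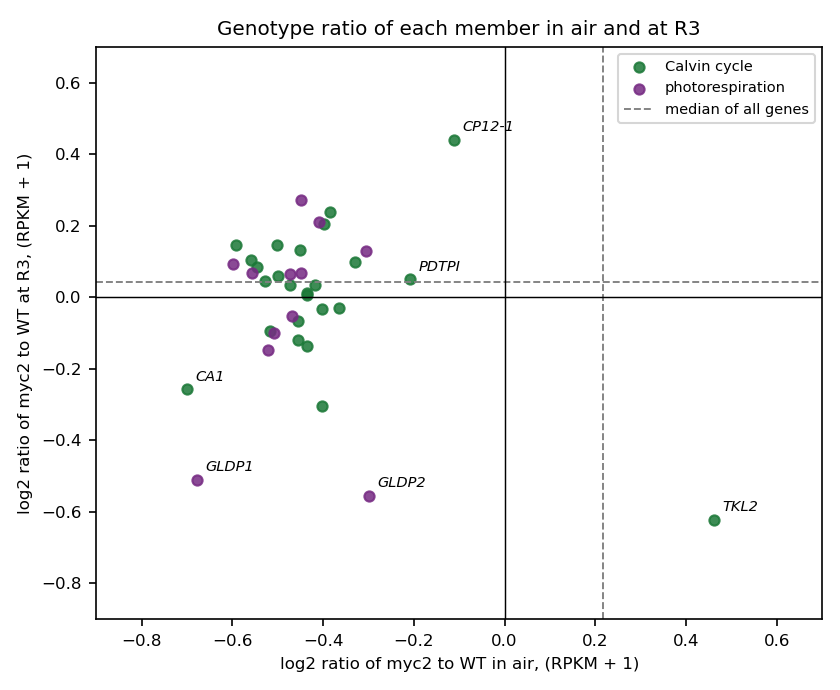
log2 ratio of myc2 to WT of each member in air (horizontal axis) and at R3 (vertical axis), with dashed lines at the median of all genes. Most members lie left of 0 in air and around 0 at R3; CP12-1 lies highest, and GLDP1, GLDP2 and TKL2 lie lowest at R3.

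The difference of the R3 responses, myc2 less WT, restates these values on 1 scale and uses the same 4 libraries. It was above 0 for 35 of 37 members, which means a smaller reduction at R3 in myc2, where 34.9% of 17540 genes were above 0. Its median was 0.45 for the Calvin cycle and 0.48 for photorespiration, or 0.61 and 0.64 relative to all genes, whose median was −0.16. Over the settings tried the medians ran from 0.27 with an equal sum to 0.73 with median-of-ratios scaling for the Calvin cycle, and from 0.26 to 0.76 for photorespiration. RBCS2B (0.74), GOX2 (0.72) and GOX1 (0.69) had the highest values, and with median-of-ratios scaling RBCS2B (1.02) and GOX2 (1.003) passed 2-fold. CFBP1 (0.10) and GLDP1 (0.17) had the lowest values above 0. GLDP2 (−0.26) and TKL2 (−1.09) were below 0, and TKL2 was under 2-fold with a pseudocount of 5 RPKM (−0.78) and with median-of-ratios scaling (−0.87). With the values as deposited, 23 of the 37 members were higher in myc2 than in WT at R3 and lower in air, and 13 were lower in both. With an equal sum these counts were 7 and 29, and with an equal sum without the 50 highest genes 13 and 23, so the count rests on the scaling. The same counts over all genes were not made, so they are not read as particular to the members.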

How the data were processed

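Leaf RNA was sequenced in 4 libraries, 1 per group, grouped by sample title. The authors deposited 1 value per locus: RPKM in WT air, myc2 air and myc2 R3, per the names of their tables, and FPKM in WT R3, per the file headers; all were treated as 1 unit. Per the submitters' processing notes, TopHat, Cufflinks and TAIR10 were used, with no settings given. Depth was estimated from the smallest steps of RPKM times exon length, and is approximate, since the share of low genes within 0.05 fragments of a whole number was 26.9% to 29.6%. Log2 ratios used a pseudocount of 1 RPKM and a mean of at least 1 RPKM; the pseudocount understates changes of low genes. Members and lists were chosen with earlier results of these data known. All members are named; of each further list, the 2 highest and 2 lowest ratios of each R3 response, with exceptions stated. Sequences, exons and motifs came from RefSeq TAIR10.1. Alternatives were other pseudocounts (0.1 and 5 RPKM), filters (none and 5 RPKM), 3 scalings, and leaving out 5 members that share over 10% of their words. The computation was tested on simulated data with planted changes and no spread between plants, which checks the arithmetic alone. Python 3.11.15, numpy 2.4.6, pandas 2.3.3 and matplotlib 3.10.9 were used.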

Additional observations from a re-analysis of the deposited data

Results flagged for a closer look

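With the values as deposited, the genotypes differed in opposite directions at R3 and in air for both pathway medians and for 24 of the 37 members, and none of these differences was tested. This depends on the scaling: with an equal sum, and with an equal sum without the 50 highest genes, both medians at R3 were below 0 as in air, and 8 and 14 members were opposite. The share of all genes with opposite directions was not counted, so these counts say nothing particular of the members. The Calvin cycle median of myc2 against WT was 0.03 at R3 and −0.44 in air, 0.47 apart. The photorespiration median was 0.07 at R3 and −0.47 in air, 0.54 apart. These distances are between medians, and so are not the medians of the differences given above. TKL2 was lower in myc2 at R3 (−0.62) and higher in air (0.46), which are −1.09 apart. The other 23 members, 7 and 13 under those scalings, were higher at R3 and lower in air, and those whose ratios between genotypes are given above are repeated here. CP12-1 was at 0.44 at R3 and −0.11 in air, 0.55 apart. RBCS2B was at 0.15 at R3 and −0.59 in air, 0.74 apart. GOX1 was at 0.09 and −0.60, 0.69 apart, and GOX2, its tandem neighbour, at 0.27 and −0.45, 0.72 apart. GLDH1 was at 0.13 and −0.31, 0.43 apart. PDTPI was at 0.05 and −0.21, 0.26 apart. Of the members named here, GOX1, GLDH1 and PDTPI were below 0 at R3 with an equal sum, and RBCS2B was then at 0.00328.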

How the results depend on the processing

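The signs and the side of 2-fold of both pathway medians were the same under all 8 alternatives for both R3 responses and for myc2 air against WT air. In myc2, 32 of 37 members were at least 2-fold lower at R3 under every setting, and in WT 34 of 37. The exceptions were in myc2 R3 against WT R3: with each library brought to an equal sum, the medians were −0.108 (Calvin cycle, 20 members lower) and −0.0731 (photorespiration, 10 lower), and with an equal sum without the 50 highest genes −0.0390 (16 lower) and −0.00459 (8 lower). In the difference of responses, members below 0 numbered 2 in each pathway with an equal sum and 0 in photorespiration with median-of-ratios scaling. Single genes turned in sign with an equal sum (GLDP2 in WT, 0.241; GLDP1 in the difference, −0.00953; at R3 PDTPI, −0.0908, GLDH1, −0.0134, and GOX1, −0.0498), with the sum without the highest genes (PDTPI, −0.02195; GLDH2 in myc2, −0.154) and with median-of-ratios scaling (GLDP2 in the difference, 0.0262; GLDH2 in myc2, −0.229). The cause was not tested. No paired analysis was possible because each group has 1 library. Counting error is small for the members apart from PGLP1, while the spread between plants is not known.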
